A study of Mus musculus with 15 samples.

Results

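The genes described here are 10 that mark oligodendrocyte precursor cells or the first steps by which these cells become myelinating oligodendrocytes. They are Pdgfra, Cspg4, Olig1, Olig2, Sox10, Gpr17, Bcas1, Enpp6, Tcf7l2 and Tnr. They were chosen by name, matched by symbol to the gene identifiers of the count files, and make up 10 of the 55401 genes counted in each library. All 10 passed the filter on low counts and were among the 19536 genes tested. RNA was taken from the hippocampus of female mice. The methods give an age of 18 to 20 months for the mice used, without saying whether this was the age at tissue collection. The paper's discussion of spine density gives an older age. The transgenic animals were of the Tg2576 line (genotype label Tg2576 +/+), which overexpresses human amyloid precursor protein with the Swedish mutation from a prion promoter, and the WT animals were their transgene-negative littermates (Tg2576 -/-). Mice received docosahexaenoic acid (DHA, 450 mg/kg) in sesame oil daily for 5 weeks by the intragastric route, or sesame oil alone as vehicle. There were 4 libraries each of WT mice on vehicle, of WT mice on DHA and of Tg2576 mice on vehicle, and 3 of Tg2576 mice on DHA, so that every mouse, controls included, had been given sesame oil. The sources do not state that each library came from a separate animal, although libraries are called mice below, and the p-values measure the spread between these libraries.

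Oligodendrocyte precursor cells persist in the adult brain, where they divide in response to platelet-derived growth factor and differentiate into the cells that wrap axons with myelin. Pdgfra is the receptor for that growth factor and Cspg4 encodes the NG2 proteoglycan of the precursor surface. The transcription factors Olig1, Olig2 and Sox10 are made throughout the lineage, from precursors to mature cells. Gpr17, Bcas1 and Enpp6 mark committed precursors and newly forming oligodendrocytes, and Tcf7l2 is a transcription factor of that same transition which also acts downstream of Wnt signals. Tnr encodes tenascin-R, an extracellular matrix glycoprotein secreted by the lineage and by some interneurons. Pdgfra is also made by fibroblasts, Cspg4 by the mural cells of vessels and Tcf7l2 by thalamic neurons. The hippocampus was sequenced in bulk, so fewer cells of a type and less RNA per cell cannot be told apart.

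Total counts ranged from 17372864 to 46596489 per mouse (median 25645977). App was counted at 1570 to 1790 CPM (counts scaled to the library total) in the 8 WT mice and at 2080 to 2790 CPM in the 7 Tg2576 mice, so the libraries followed their genotype labels. The tissue label was met by Slc17a7 at 1310 to 2050 CPM and by the dentate granule cell factor Prox1 at 53.1 to 107 CPM. Tg2576 vehicle replicate 1 was the shallowest library and held extreme values in this lineage. It had the lowest Opalin (6.02 CPM) of the 15 mice and at the same time the highest Hapln2 (118 CPM), both genes of mature oligodendrocytes. The mean log2 deviation of 18 such genes from the group mean was -0.639 in it, and -0.304 in the next lowest mouse, Tg2576 DHA replicate 2. Dixon's test for outliers, run on the 10 genes within the groups of 4, flagged 0 of 30 comparisons. Several values that Tg2576 vehicle replicate 1 moved are also given without it.

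Promoter windows were available for 6 of the 10 genes in the RefSeq table of GRCm38.p6. Those of Olig2, Cspg4, Pdgfra and Tnr are shown because Olig2 and Cspg4 were the genes whose groups did not overlap, and because Cspg4, Pdgfra and Tnr moved together over the mice and against Olig2, as described below. Each window runs 5′ to 3′ on the plus strand from 250 bases before to 50 after the RefSeq start, at chr16:91225300-91225599 (Olig2), chr9:56864854-56865153 (Cspg4), chr5:75152001-75152300 (Pdgfra) and chr1:159523519-159523818 (Tnr). Capitals mark CAGATG and CAGCTG, short sequences of the E-box kind bound by basic helix-loop-helix factors, and ACAAAG, of the kind bound by SOX factors, each searched on both strands.
Olig2: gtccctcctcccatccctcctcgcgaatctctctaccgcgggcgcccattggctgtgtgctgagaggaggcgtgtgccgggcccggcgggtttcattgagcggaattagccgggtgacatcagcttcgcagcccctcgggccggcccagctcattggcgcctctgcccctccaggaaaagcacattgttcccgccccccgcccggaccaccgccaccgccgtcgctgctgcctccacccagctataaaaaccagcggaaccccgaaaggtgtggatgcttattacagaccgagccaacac
Cspg4: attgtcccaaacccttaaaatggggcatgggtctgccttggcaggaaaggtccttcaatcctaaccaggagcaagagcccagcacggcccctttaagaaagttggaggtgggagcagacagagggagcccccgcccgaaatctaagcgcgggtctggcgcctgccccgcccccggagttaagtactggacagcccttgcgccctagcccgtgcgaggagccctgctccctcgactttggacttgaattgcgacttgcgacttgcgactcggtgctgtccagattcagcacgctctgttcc
Pdgfra: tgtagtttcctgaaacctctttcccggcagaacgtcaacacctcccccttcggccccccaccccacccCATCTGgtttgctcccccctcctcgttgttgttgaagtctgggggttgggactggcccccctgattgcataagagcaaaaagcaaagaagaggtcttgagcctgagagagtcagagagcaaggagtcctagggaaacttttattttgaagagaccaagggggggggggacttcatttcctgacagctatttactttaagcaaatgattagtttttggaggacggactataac
Tnr: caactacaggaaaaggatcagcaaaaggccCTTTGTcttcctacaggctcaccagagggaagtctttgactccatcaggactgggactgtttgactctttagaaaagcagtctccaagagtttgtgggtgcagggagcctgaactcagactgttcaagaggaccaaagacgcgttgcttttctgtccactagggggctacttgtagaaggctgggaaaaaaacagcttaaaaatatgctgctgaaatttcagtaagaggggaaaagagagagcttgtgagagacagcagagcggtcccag
The Olig2 window had 65.0% GC and 25 CpG, and that of Cspg4 60.0% GC and 17 CpG. The windows of Pdgfra (51.0% GC, 5 CpG) and Tnr (48.0% GC, 3 CpG) were poorer in both, against medians of 52.7% and 7 over all 32851 windows. Pdgfra held 1 CAGATG and Tnr 1 ACAAAG, each on the reverse strand, and the windows of Olig2 and Cspg4 held none of the 3. Of all windows, 17.2% held CAGATG, 16.3% CAGCTG, 18.7% ACAAAG and 43.5% at least 1 of them. A match describes the letters and is not a binding site. Olig2 (chr16:91225457-91228677) and Olig1 (chr16:91269772-91271933) lie on the same strand, with 41094 bases between them.

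The levels of the 10 genes spanned about 2 orders of magnitude. Per kilobase of exon and averaged over the 15 mice, Olig1 was the highest at 51.2 ± 6.02 CPM per kb (SD, n = 15) and Bcas1 followed at 46.2 ± 8.15. Sox10 (21.7 ± 3.96), Tnr (14.2 ± 3.07) and Olig2 (12.2 ± 2.59) formed the middle of the order. Gpr17 (6.61 ± 1.55), Pdgfra (3.95 ± 0.678), Cspg4 (2.17 ± 0.279), Enpp6 (1.21 ± 0.312) and Tcf7l2 (0.539 ± 0.157) were lower. Tnr and Olig2 changed places between mice, with Tnr higher in 9 of 15, and Olig1 was above Bcas1 in 12 of 15. Sox10 was above Tnr in 13 of 15 mice and Gpr17 above Pdgfra in 14 of 15, and every other pair of neighbours kept its order in 15 of 15 mice. Tcf7l2 was the least securely counted gene, with 58 to 212 counts per mouse, whereas Bcas1 had 2126 to 9104. On the scale used for the comparisons (CPM scaled by the TMM method, not divided by length), Olig1 and Cspg4 varied least over the 15 mice (coefficients of variation 11.7% and 12.9%) and Tcf7l2 most (29.2%). The exons of Gpr17 overlap those of Lims2 on the other strand, and counting did not use strand, so reads in the shared part could not be assigned. Gpr17 had 14201 counts over all mice and Lims2 3850.

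**Figure D1:**
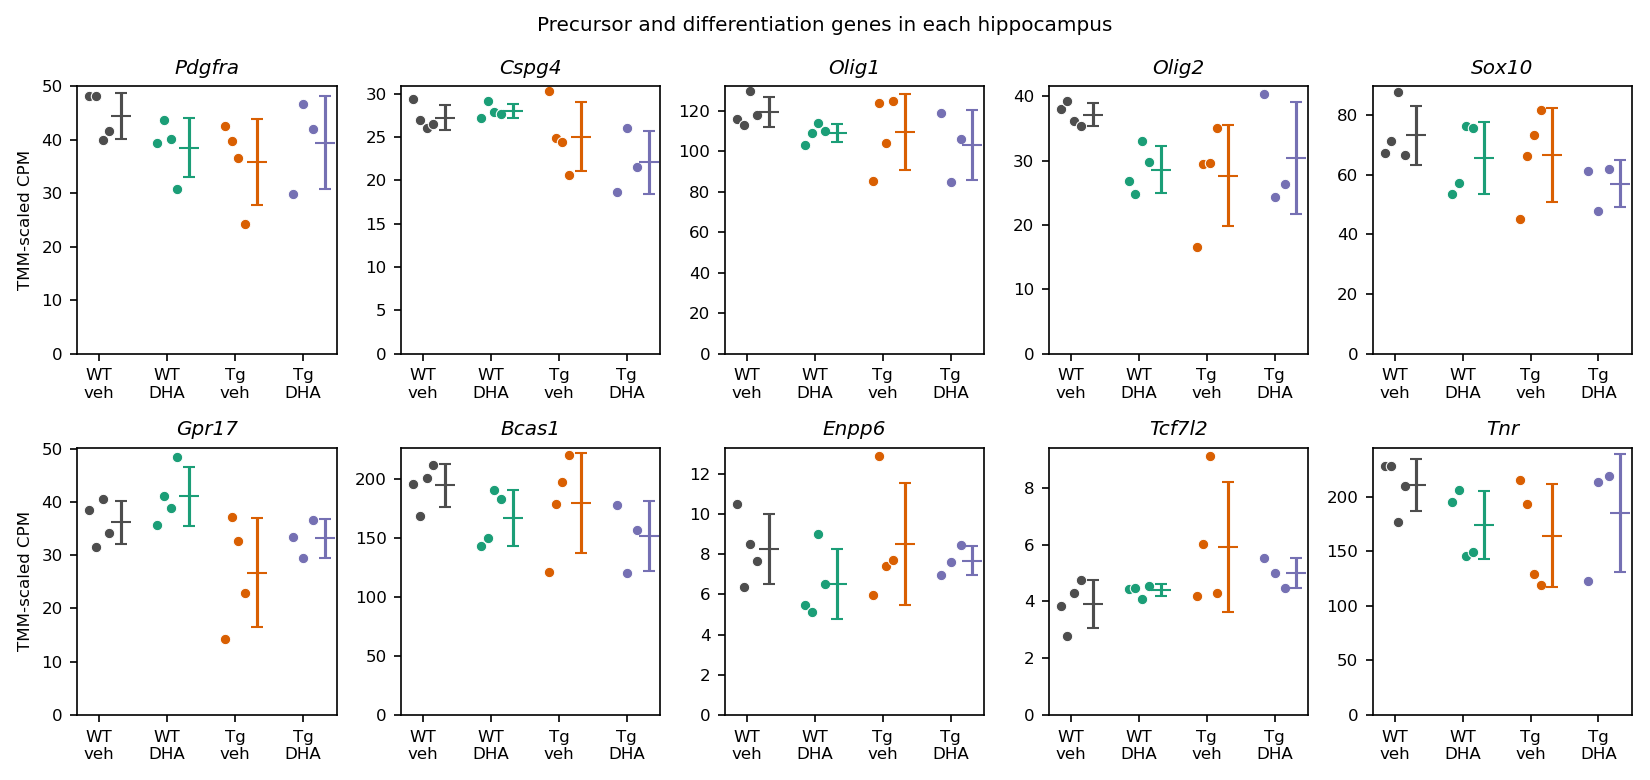
TMM-scaled CPM of each gene (vertical axis, from 0) in each mouse (points) of the 4 groups (horizontal axis, Tg for Tg2576, veh for vehicle), with the mean and SD of each group beside the points. The WT vehicle points of Olig2 (35.3 to 39.2 CPM) lie above those of WT DHA (24.8 to 33.1 CPM) and Tg2576 vehicle (16.6 to 35.0 CPM), and 1 Tg2576 vehicle mouse holds the lowest Gpr17, at 14.2 CPM.

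Whether the transgene changed these genes was asked first in the vehicle-treated mice. With edgeR, 0 of the 10 genes reached the study's threshold for a call, a p below 0.01 before adjustment, where 3.09% of all genes did, and the count was also 0 with limma-voom and with DESeq2. At a p under 0.05 there were 2 of 10 with edgeR, against 10.7% of all genes, and 3 with each of the other tools. Of the 10 genes, 8 had lower and 2 higher mean values in Tg2576 mice (median log2 fold change -0.13, against 0.00 over all genes).

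The 2 genes were Olig2 and Tcf7l2, and they differed in opposite directions. Olig2 was counted at 38.0, 39.2, 36.1 and 35.3 CPM in the WT vehicle mice and at 16.6, 29.4, 29.6 and 35.0 CPM in the Tg2576 vehicle mice. Each Tg2576 mouse was below each WT mouse, by a margin of less than 1 CPM for the nearest pair. The log2 fold change was -0.42 ± 0.19 (SE), a fold of 0.747 with a 95% interval of 0.569 to 0.981, and neither the unadjusted p of 0.0373 nor the adjusted p of 0.425 passed its threshold. The lowest value, 16.6 CPM, was that of Tg2576 vehicle replicate 1. Over 28 alternative fits, which include the omission of each mouse, the log2 fold change ran from -0.535 to -0.244. Its unadjusted p in these fits ran from 0.00692 to 0.119. In an exact permutation test of the difference in mean log2 CPM, two-sided, Olig2 gave 0.0286, the smallest p that 4 mice against 4 allow. Olig2 was the only member without overlap here, 1 of 10 genes against 5.16% of all genes. With library sizes in place of TMM factors the groups overlapped and 0 of the 10 genes were without overlap, a setting in which the share of all genes was not computed.

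Tcf7l2 was counted at 3.83, 2.80, 4.29 and 4.75 CPM in the WT vehicle mice and at 4.20, 6.04, 9.11 and 4.31 CPM in the Tg2576 vehicle mice. The groups overlapped, and the highest value belonged to 1 mouse, Tg2576 vehicle replicate 3. The log2 fold change was 0.59 ± 0.23 (SE), a fold of 1.51 with an interval of 1.08 to 2.10 (unadjusted p = 0.0188, adjusted p = 0.367). Without Tg2576 vehicle replicate 1, a fit with 965 calls over all genes against 604 in the main fit, it was 0.72 with an unadjusted p of 0.0059, past the threshold. Without replicate 4 it was 0.73 (unadjusted p = 0.00619). Other settings weakened it, and over the 28 alternative fits it ran from 0.307 to 0.733, with an unadjusted p of up to 0.147.

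Gpr17, a receptor of committed precursors, was counted at 38.4, 31.5, 40.6 and 34.1 CPM in WT vehicle mice and at 14.2, 37.1, 32.6 and 22.9 CPM in Tg2576 vehicle mice. A pair of the 4 Tg2576 mice was below all WT mice and the other pair lay within their range. The log2 fold change was -0.43 ± 0.21 (SE) with an unadjusted p of 0.0558, and leaving out Tg2576 vehicle replicate 2 gave -0.63 with a p of 0.00642. Over the 28 alternative fits the log2 fold change of Gpr17 ran from -0.634 to -0.228, with an unadjusted p of up to 0.21. Pdgfra (-0.31, unadjusted p = 0.0721) and Tnr (-0.37, unadjusted p = 0.0968) had the next smallest p. Without Tg2576 vehicle replicate 1, Pdgfra and Cspg4 joined Olig2 as genes that were lower in each Tg2576 mouse than in each WT mouse, 3 of 10 genes against 13.2% of all genes in that setting. Olig1, Sox10, Bcas1, Cspg4 and Enpp6 had log2 fold changes between -0.14 and 0.04, and for Olig1 the interval of the fold was 0.774 to 1.09.

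In the DHA-treated mice, 0 of the 10 genes were called with edgeR, where 1.75% of all genes were, and the count was 0 with limma-voom and with DESeq2. At a p under 0.05 there was 1 of 10, against 6.86% of all genes, and it was Cspg4 with each of the 3 tools. Cspg4 was counted at 27.2, 29.2, 27.9 and 27.7 CPM in the WT DHA mice and at 18.7, 26.0 and 21.5 CPM in the Tg2576 DHA mice. Each Tg2576 mouse was below each WT mouse, and the WT values lay close together. The log2 fold change was -0.34 ± 0.13 (SE), a fold of 0.788 with an interval of 0.656 to 0.947 (unadjusted p = 0.0142, adjusted p = 0.623). The exact permutation test, two-sided, gave 0.0286, the smallest p for 4 mice against 3. Cspg4 was 1 of 10 genes without overlap, against 8.56% of all genes. When library sizes replaced TMM factors 2 of the 10 were without overlap, and the share of all genes was not computed in that setting. The fold change passed the threshold without Tg2576 DHA replicate 2 (-0.48, unadjusted p = 0.00253) and with an offset for gene length (-0.37, unadjusted p = 0.00135). Other settings weakened it, and over the 28 alternative fits the log2 fold change ran from -0.477 to -0.233, with an unadjusted p of up to 0.121.

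Over both treatments together, Tg2576 against WT, 0 of 10 genes were called with edgeR and with DESeq2 and 1 with limma-voom, against 3.85% of all genes with edgeR. At a p under 0.05 there were 3 of 10, against 11.6% of all genes. Cspg4 had a log2 fold change of -0.23 (unadjusted p = 0.0141, adjusted p = 0.289), and limma-voom, which called it, gave -0.25 with a p of 0.00892. Gpr17 had -0.37 (unadjusted p = 0.029) and Tcf7l2 0.39 (unadjusted p = 0.0321). Cspg4 passed the threshold without Tg2576 vehicle replicate 1 (-0.28, unadjusted p = 0.00222) and without Tg2576 DHA replicate 2 (-0.30, unadjusted p = 0.0032), and Gpr17 did without Tg2576 vehicle replicate 2 (-0.47, unadjusted p = 0.00436). In other alternative fits the unadjusted p reached 0.0632 for Cspg4, 0.0816 for Gpr17 and 0.101 for Tcf7l2.

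The effect of DHA in WT mice was asked next. With edgeR 0 of 10 genes were called, where 1.38% of all genes were, and 0 had a p under 0.05, where 5.92% of all genes did. limma-voom and DESeq2 also called 0, and limma-voom gave 1 gene a p under 0.05, Olig2. Olig2 was counted at 26.8, 24.8, 33.1 and 29.7 CPM in the WT DHA mice, each below the 35.3 to 39.2 CPM of the WT vehicle mice. Its log2 fold change was -0.38 ± 0.19 (SE), a fold of 0.77 with an interval of 0.586 to 1.01 (unadjusted p = 0.0586, adjusted p = 0.859). A fit of only these 2 groups gave -0.38 with a p of 0.00199, and called 431 of all genes against 270 in the main fit. Over the 28 alternative fits the log2 fold change ran from -0.455 to -0.314, with an unadjusted p of up to 0.144. Olig2 was 1 of 10 genes without overlap, against 5.02% of all genes, and its exact permutation p was 0.0286. The comparison shares its WT vehicle mice with that of genotype under vehicle. Without WT vehicle replicate 2, Olig1 and Bcas1 were also lower in each DHA mouse, 3 of 10 genes against 7.6% of all genes. Cspg4 was higher in each DHA mouse without WT vehicle replicate 1, where 2 of 10 genes and 6.56% of all genes were without overlap. Tnr was lower without WT vehicle replicate 3 (2 of 10 genes, 11.4% of all genes) and Olig1 without WT DHA replicate 3 (2 of 10 genes, 8.02% of all genes). The other genes ranged from a log2 fold change of -0.35 for Enpp6 (unadjusted p = 0.146) to 0.18 for Gpr17 (unadjusted p = 0.396).

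In Tg2576 mice, 0 of 10 genes were called upon DHA with edgeR, limma-voom or DESeq2, and 0 had a p under 0.05 with any of these, where edgeR gave 0.353% and 3.16% of all genes. The smallest p was that of Cspg4 (-0.18, unadjusted p = 0.171), and 0 of the 10 genes were without overlap, against 3.21% of all genes. Olig2 was counted at 40.4, 24.4 and 26.4 CPM in the Tg2576 DHA mice, with 1 mouse above and the other 2 within the range of the Tg2576 vehicle mice. Without Tg2576 vehicle replicate 1, Sox10 and Bcas1 were lower in each DHA mouse than in each vehicle mouse, 2 of 10 genes against 7.62% of all genes in that setting. The intervals were wide. That of Gpr17 ran from a fold of 0.887 to 1.72, and that of Olig1 from 0.783 to 1.13.

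The difference between the DHA effects of the 2 genotypes was not detected for any member at this spread. The interaction called 0 of 10 genes with edgeR, limma-voom and DESeq2 (0.829% of all genes with edgeR), and 0 had a p under 0.05 with any of the 3 (5.12% of all genes with edgeR). Olig2 had the smallest p (0.0794), with a difference of log2 fold changes of 0.51 and an interval of -0.07 to 1.09. Over both genotypes together DHA called 0 of 10 genes with each of the 3 tools (0.87% of all genes with edgeR) and 0 had a p under 0.05 (3.78% of all genes with edgeR). Lower mean values were found for 9 of the 10, and for 10128 of all 19536 genes. Several of the 10 moved together over the mice, as described below, so their signs are not independent. Those of Pdgfra, Tcf7l2 and Tnr changed in 2 to 3 of 27 alternative fits. Bcas1, a protein of newly myelinating cells, came nearest with -0.23 (unadjusted p = 0.0664), and without Tg2576 vehicle replicate 1 it was -0.31 with a p of 0.00503. Over 27 alternative fits the log2 fold change of Bcas1 ran from -0.305 to -0.152, with an unadjusted p of up to 0.22.

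**Figure D2:**
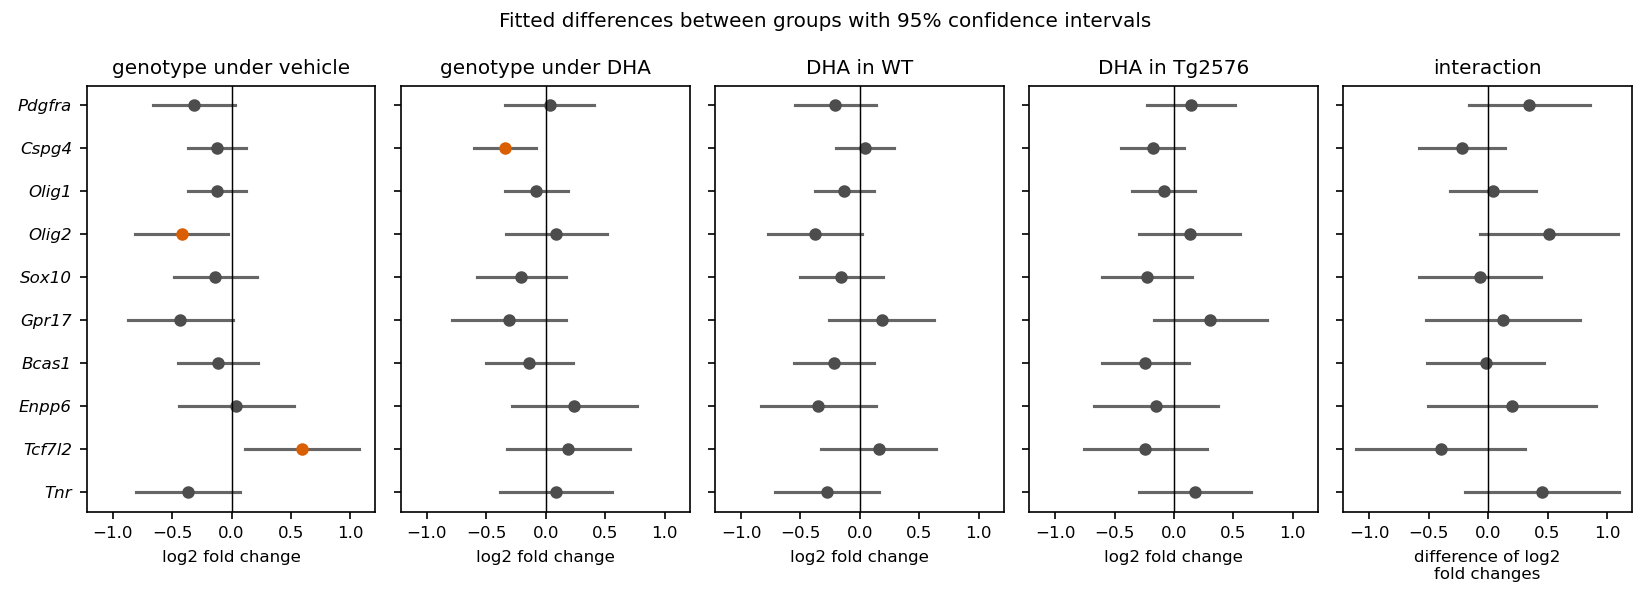
Fitted log2 fold change (points, horizontal axis) of the 10 genes with 95% confidence intervals (lines) in the 4 comparisons of 2 groups, and the difference of log2 fold changes for the interaction, where positive values are higher in Tg2576 or upon DHA. Orange points have an unadjusted p under 0.05, which Olig2 and Tcf7l2 have for genotype under vehicle and Cspg4 for genotype under DHA.

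The summed level of the 10 genes, inspected after the single genes, was 737 to 776 CPM in WT vehicle mice. It was 634 to 681 CPM in the WT mice on DHA, and 579 to 712 CPM and 605 to 683 CPM in the Tg2576 mice on vehicle and on DHA. Each of the 4 WT vehicle mice was above each of the 11 other mice. No single gene did so. At most 2 WT vehicle mice were above all others for a gene (Pdgfra and Tnr), and 0 were for Olig2 and Bcas1. How often sums of other genes separate these mice was not examined. Tnr, Bcas1 and Olig1 made up most of this sum, and for Olig2 10 of the 11 other mice were below all WT vehicle mice, while for Tcf7l2 0 of 11 were. No test is given for the sum because its genes were chosen with earlier results known.

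The larger pattern in these genes lay between mice of the same group. After the mean of each group was subtracted from log2 CPM, the genes fell into sets that moved against each other over the 15 mice, named here after their values were seen. Olig1, Olig2, Sox10 and Bcas1 rose and fell together, with a Pearson's r of 0.779 to 0.877 in their 6 pairs. Pdgfra, Cspg4 and Tnr did likewise, with an r of 0.765 to 0.839 in their 3 pairs. Between the sets r was negative in 12 of 12 pairs, from -0.859 for Cspg4 and Olig1 to -0.628 for Olig1 and Tnr. With the 4 genes of the first set, the r of Gpr17 was 0.551 to 0.635, that of Enpp6 0.369 to 0.461 and that of Tcf7l2 0.18 to 0.373. These values rested on Tg2576 vehicle replicate 1, and without it they were -0.146 to 0.232, 0.0574 to 0.25 and -0.188 to 0.0982. Over all 45 pairs the median r was 0.18. All points of a pair come from the same library and share its depth and composition, and these r are descriptions without a test.

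The mice at the ends of this pattern were easy to name. In Tg2576 vehicle replicate 4, Pdgfra was 24.3, Cspg4 20.6 and Tnr 119 CPM, each the lowest of its group, while Bcas1 was 220, Olig1 125 and Olig2 35.0 CPM, each the highest of its group. Tg2576 vehicle replicate 1 had the reverse, with Cspg4 at 30.3 and Tnr at 215 CPM, the highest of its group, and Olig1 at 85.2, Olig2 at 16.6 and Bcas1 at 121 CPM, the lowest. In the Tg2576 DHA group, replicate 1 had Pdgfra at 29.8 and Olig2 at 40.4 CPM and replicate 2 had Pdgfra at 46.6 and Olig2 at 24.4 CPM. The mean deviations of the 2 sets had opposite signs in 12 of the 15 mice, with r = -0.849. Without Tg2576 vehicle replicate 1, r between the sets was still negative in 12 of 12 pairs, with a median of -0.695 against -0.75 with it. The median within the first set moved from 0.834 to 0.681 and that within Pdgfra, Cspg4 and Tnr from 0.836 to 0.813.

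**Figure D3:**
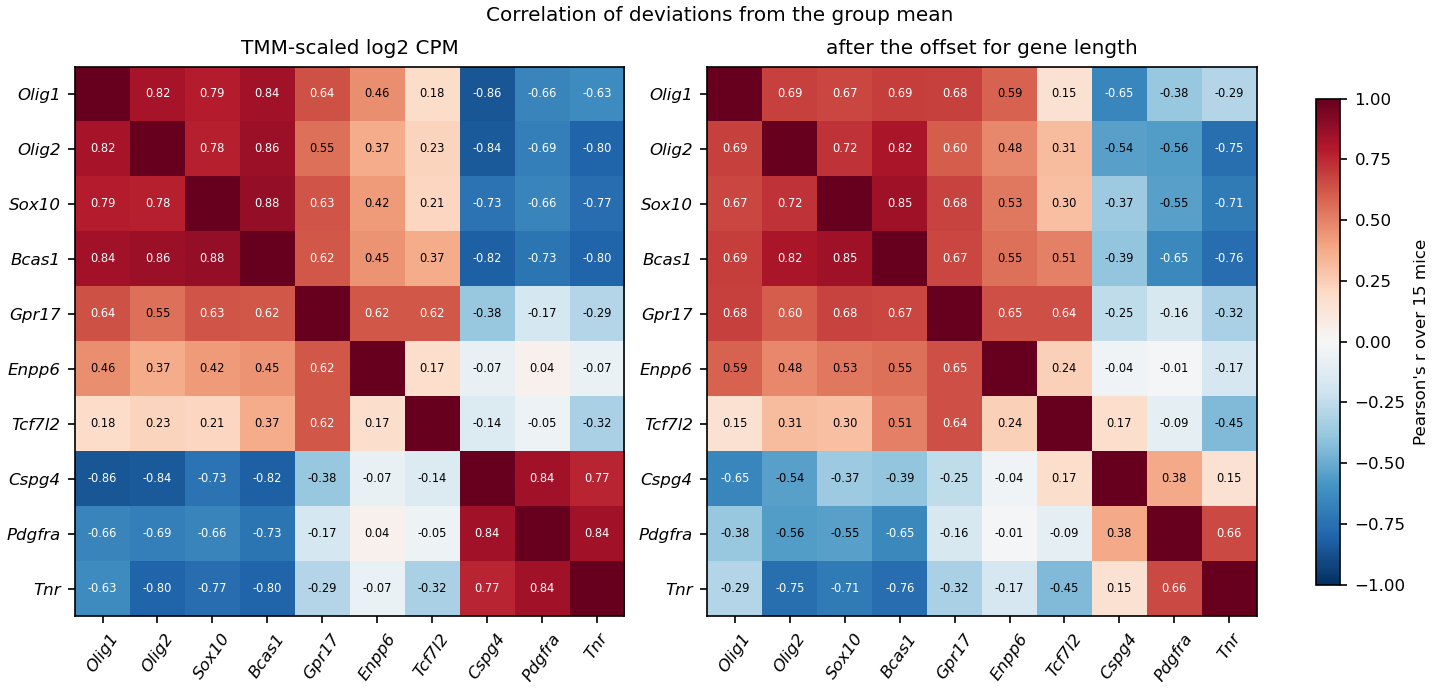
Pearson's r between genes (rows and columns) over 15 mice, of deviations from the group mean in TMM-scaled log2 CPM (left) and after an offset for gene length in each mouse (right), coloured from -1 (blue) to 1 (red). Olig1, Olig2, Sox10 and Bcas1 form a red block against Cspg4, Pdgfra and Tnr, and the block between the sets is paler on the right, where its median r is -0.551 against -0.75 on the left.

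Gene length ran alongside this pattern. The exons of Pdgfra, Cspg4 and Tnr add up to 10024, 11931 and 12867 bases, and those of Olig1, Olig2, Sox10 and Bcas1 to 2162, 2530, 3051 and 3775 bases. For each mouse the slope of all tested genes' deviations on log2 exon length was taken, and it ranged from -0.093 in Tg2576 DHA replicate 1 to 0.0738 in Tg2576 DHA replicate 2. The r with this slope was 0.907 for Pdgfra, 0.867 for Tnr and 0.793 for Cspg4. It was -0.694 for Bcas1, -0.659 for Olig1, -0.625 for Sox10 and -0.622 for Olig2. Gpr17 (5195 bases, r = -0.182), Enpp6 (6412 bases, r = 0.0419) and Tcf7l2 (8894 bases, r = -0.214) lay between. Tcf7l2 went against its length, since the 2171 tested genes of 7000 to 10000 bases had a median r of 0.438 and a lower quartile of 0.0727. Among all 1503 tested genes of 10000 bases or more the median r was 0.674, and 37.7% had an r over 0.75. Among the 5871 genes of 2000 to 4000 bases the median was -0.159, and 16.3% had an r under -0.6. With an offset that takes the length trend out of each mouse, the median r between the sets moved from -0.75 to -0.551, that within Pdgfra, Cspg4 and Tnr from 0.836 to 0.377 and that within Olig1, Olig2, Sox10 and Bcas1 from 0.834 to 0.706. With the offset and without Tg2576 vehicle replicate 1, r between the sets was negative in 10 of 12 pairs (median -0.459). In that setting the sets themselves were looser, with a median of 0.44 within Olig1, Olig2, Sox10 and Bcas1 and of 0.237 within Pdgfra, Cspg4 and Tnr, where 2 of 3 pairs were positive and Cspg4 with Tnr had -0.165. The part of RNA or library quality in this pattern was not tested.

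Several other genes of these cells were placed by length in a similar way, with exceptions. Of the other precursor genes, Sox6 (14832 bases, r = 0.935 with the length slope), Xylt1 (9651 bases, 0.923), Ptprz1 (14245 bases, 0.884) and Vcan (14462 bases, 0.774) were on the side of Pdgfra. C1ql1 (1473 bases, -0.681) and Cacng4 (3575 bases, -0.658) were on the side of Olig2, whereas Lhfpl3 (3213 bases, 0.68), Megf11 (11181 bases, 0.0735) and the myelin gene Mbp (8469 bases, -0.706) went against their length. Itpr2, a marker of newly formed oligodendrocytes, had 14802 bases and an r of 0.849, and Nkx2-2, a transcription factor of their differentiation, had 2875 bases and -0.569.

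**Figure D4:**
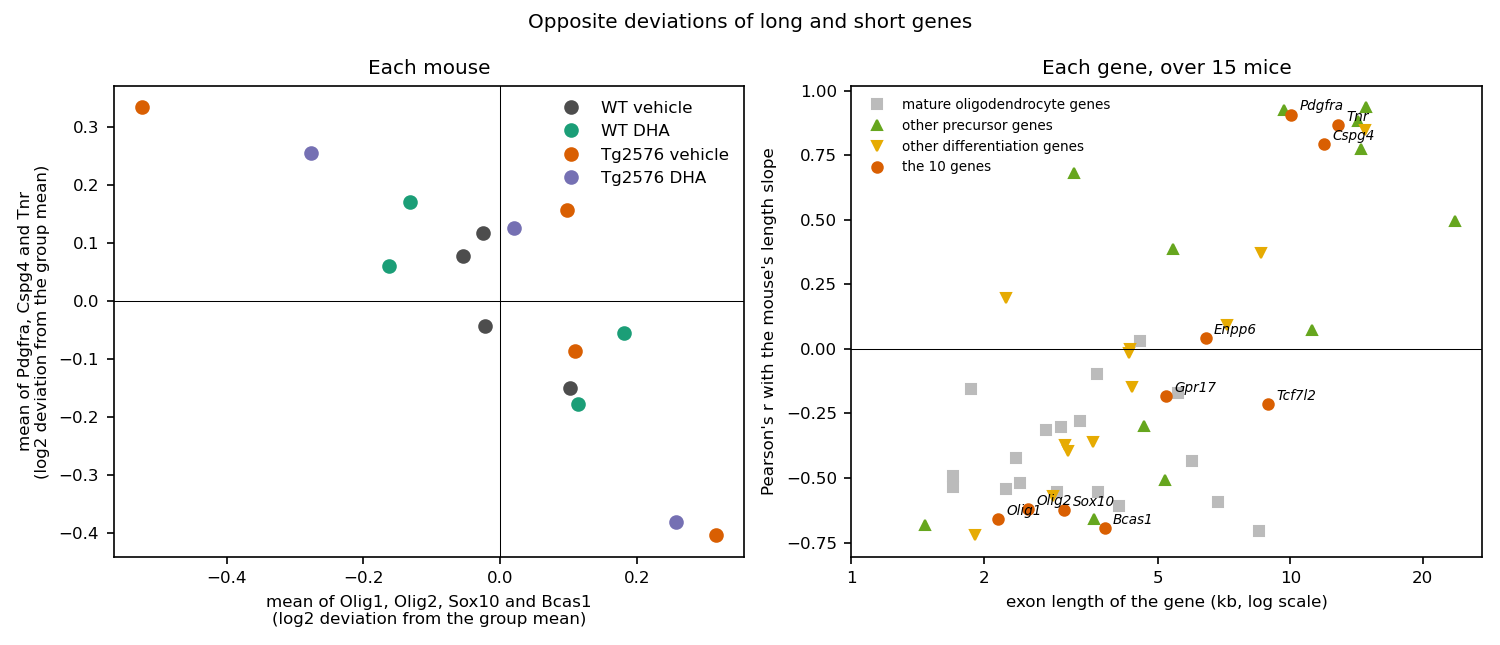
Left, the mean log2 deviation from the group mean of Pdgfra, Cspg4 and Tnr (vertical axis) against that of Olig1, Olig2, Sox10 and Bcas1 (horizontal axis), 1 point per mouse, which runs from upper left to lower right (r = -0.849). Right, Pearson's r of each gene with the length slope of the 15 mice against its exon length (kb, log axis), where Pdgfra (0.907), Tnr (0.867) and Cspg4 (0.793) lie high among the long genes and Bcas1 (-0.694) low among the short ones.

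The first set also followed myelin genes, but not these alone. With the mean deviation of 18 mature oligodendrocyte genes, r was 0.895 for Bcas1, 0.883 for Olig2, 0.842 for Sox10, 0.826 for Olig1, 0.792 for Gpr17 and 0.622 for Enpp6. It was -0.669 for Cspg4, -0.657 for Tnr and -0.491 for Pdgfra. Without Tg2576 vehicle replicate 1 it was 0.661 to 0.781 for Olig1, Olig2, Sox10 and Bcas1, 0.471 for Gpr17, 0.492 for Enpp6, and -0.399 for Cspg4, -0.543 for Tnr and -0.362 for Pdgfra. With the mean deviation of 6 microglial genes, r was 0.675 to 0.789 for Olig1, Olig2, Sox10 and Bcas1 and 0.726 for Gpr17. Without that mouse these were 0.337 to 0.599 and 0.42. With the mean deviation of 12 other precursor genes, r was 0.686 for Pdgfra, 0.598 for Tnr and 0.436 for Cspg4 and lay between -0.386 (Olig2) and -0.126 (Olig1) for the 4 genes of the first set. Without that mouse Olig2 had -0.693 and Pdgfra 0.769. The summed level of the mature genes was 8490 to 9180 CPM in the WT mice on vehicle and 6490 to 9390 CPM in those on DHA, and in the Tg2576 mice it was 6480 to 9480 CPM on vehicle and 6270 to 8300 CPM on DHA. The lowest sums were those of Tg2576 DHA replicate 2 (6270 CPM), Tg2576 vehicle replicate 1 (6480 CPM) and WT DHA replicate 1 (6490 CPM), mice in which the mean of Olig1, Olig2, Sox10 and Bcas1 was also below that of its group (-0.28, -0.52 and -0.16 on the log2 scale). Upon DHA in WT mice 18 of the 18 mature genes had lower mean values (median log2 fold change -0.22, all genes -0.01), as had 10291 of all 19536 genes. With edgeR 0 of the 18 were called and 0 had a p under 0.05. The 18 genes were not lower in each mouse. WT DHA replicates 1 and 2 had sums of 6490 and 6910 CPM. The sum of replicate 4 (8810 CPM) lay within the range of the WT vehicle mice and that of replicate 3 (9390 CPM) above it.

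The genes nearest to each member over the 15 mice, by r after subtraction of the group means, were mostly not lineage genes. For Olig1 they were Nkx2-2 (0.968), Ndufb2 (0.935) and Hist1h2bc (0.925), and Nkx2-2 is the neighbour that shares its lineage. For Olig2 they were Ccdc181 (0.973), Gng11 (0.948) and Litaf (0.948), and for Sox10 Spr (0.963), Gltp (0.947) and Slc25a39 (0.931). Those of Bcas1 were S100a6 (0.977), Tufm (0.97) and Lpcat2 (0.968). In this set 2 of the 12 neighbours had over 5000 bases of exon. Pdgfra was nearest to Ddx3x (0.969), 1810013L24Rik (0.964) and Ireb2 (0.963), Cspg4 to Itih5 (0.958), Smad9 (0.955) and Gpr146 (0.948), and Tnr to Casp8ap2 (0.977), Zbtb37 (0.975) and Zfp142 (0.975). Here 8 of the 9 neighbours had over 5000 bases. Gpr17 was nearest to Riox2 (0.965), Saxo2 (0.935) and Steap3 (0.928), Enpp6 to Adgrv1 (0.935), Pdpn (0.922) and Slc35g2 (0.912), and Tcf7l2 to Abcg2 (0.879), Dap (0.866) and Mro (0.859). As the highest of 19536 correlations these values are high by selection.

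Other genes of the lineage and its signals were read from fixed lists. Of 12 other precursor genes, 1 was called for genotype under vehicle, Xylt1, an enzyme that starts glycosaminoglycan chains, which was lower in Tg2576 mice (-0.54, unadjusted p = 0.00755), and 0 were called in the other 6 comparisons. Of 12 tested genes of differentiation, Sox8, a relative of Sox10, was lower in Tg2576 mice under DHA (-0.53, unadjusted p = 0.000238, adjusted p = 0.369) and over both treatments (-0.35, unadjusted p = 0.000287, adjusted p = 0.0745). Myrf, the factor that turns on myelin genes, was lower upon DHA over both genotypes (-0.23, unadjusted p = 0.00387). In the other 4 comparisons 0 of these genes were called. Of 10 growth factors and receptors, Erbb3, a neuregulin receptor, was called lower in Tg2576 mice over both treatments (-0.42, unadjusted p = 0.00772), and 0 were called elsewhere.

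Of 10 genes that hold back differentiation, Jag1, a Notch ligand, was lower for genotype under vehicle (-0.48, unadjusted p = 0.00719) and upon DHA in WT mice (-0.57, unadjusted p = 0.00206), comparisons that share the WT vehicle mice. Id2, which binds basic helix-loop-helix factors and blocks them, was higher in Tg2576 mice under DHA (0.45, unadjusted p = 0.00859) and over both treatments (0.33, unadjusted p = 0.0055), where Lingo1, an inhibitor at the cell surface, was lower (-0.20, unadjusted p = 0.00157). These are not all calls of this list, in which 1 gene was also called higher upon DHA over both genotypes. Among 10 Wnt pathway genes, in which Tcf7l2 acts, the feedback genes Znrf3 (-0.45 for genotype under vehicle, unadjusted p = 0.00923) and Axin2 (-0.31 under DHA, unadjusted p = 0.00432, and -0.20 over both treatments, unadjusted p = 0.00613) were lower in Tg2576 mice. Of 7 matrix genes that act beside Tnr, Ncan was called lower for genotype under vehicle (-0.27, unadjusted p = 0.00963). All 7 had lower mean values there (median log2 fold change -0.18). Their summed level was 716 to 734 CPM in Tg2576 DHA mice, below the 748 CPM of the lowest of the other mice. The single genes were mixed. For genotype under DHA 5 of the 7 were lower and 2 higher, and upon DHA in Tg2576 mice 3 were lower and 4 higher, with 0 called in either. How often other sums do not overlap was not examined. Of the mature genes, Mobp was lower upon DHA in Tg2576 mice (-0.46, unadjusted p = 0.00293) and over both genotypes (-0.28, unadjusted p = 0.00536). Apart from Sox8 over both treatments, the calls just named had adjusted p of 0.138 or more.

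Cells outside the lineage can carry RNA of 4 of the 10 genes, and their markers were read in the same libraries. Of 10 mural cell genes all 10 were detected (Rgs5 at 35.0 to 80.3 CPM, Tagln at 0.155 to 0.65 CPM) and their summed level was 155 to 163 CPM in the WT mice on vehicle, 150 to 173 CPM in those on DHA, and 130 to 212 CPM and 135 to 206 CPM in the Tg2576 mice on vehicle and DHA. The r of Cspg4 with their mean deviation was 0.143, but 0.756 without Tg2576 vehicle replicate 1, and 0 of the 10 were called in any comparison with edgeR, with 1 under an unadjusted p of 0.05 for genotype under vehicle and 1 in the interaction. The 8 fibroblast genes (Dcn at 9.35 to 55.5 CPM) summed to 29.2 to 57.4 CPM in WT vehicle and 35.7 to 80.2 CPM in WT DHA mice and to 24.6 to 114 CPM and 40.1 to 117 CPM in the Tg2576 groups, and the r of Pdgfra with them was 0.679 (0.817 without that mouse) and that of Cspg4 0.506 (0.805 without it). None of these 8 was called with edgeR, with 1 under an unadjusted p of 0.05 for genotype under vehicle and 1 over both treatments. Each of the 8 also had a positive r with the length slope, from 0.23 (Lum) to 0.741 (Slc22a6), as had Pdgfra (0.907) and Cspg4 (0.793). The r was not particular to fibroblast genes. With astrocyte genes it was 0.707 for Pdgfra (0.83 without that mouse) and 0.449 for Cspg4 (0.7 without it). Of the 12 thalamic genes, Gbx2 was at 0 to 0.129 CPM and Prkcd at 28.7 to 61.5 CPM, and their sum was 181 to 242 CPM, 173 to 219 CPM, 153 to 230 CPM and 170 to 200 CPM in the 4 groups in the same order. Tg2576 vehicle replicate 3, which had the highest Tcf7l2, had a thalamic sum of 202 CPM, within the range of the other mice, and the r of Tcf7l2 with the list was 0.446 (0.544 without Tg2576 vehicle replicate 1). Prkcd was the gene of this list that was called, lower upon DHA in Tg2576 mice (-0.70, unadjusted p = 0.000241) and in 3 further comparisons. The 7 interneuron genes (Gad1 at 251 to 352 CPM) summed to 786 to 1070 CPM, 830 to 911 CPM, 721 to 791 CPM and 746 to 816 CPM, and the r of Tnr with them was -0.301 (-0.312 without that mouse). Gad1 (-0.28) and Gad2 (-0.42) were called lower for genotype under vehicle, where the log2 fold change of Tnr was -0.37. Of the 7 interneuron genes, 5 had lower and 2 higher mean values there. Gad1 and Gad2 also shared the sign of the r of Tnr with the length slope (0.683, 0.642 and 0.867). Pvalb (-0.836) and Sst (-0.848) had the opposite sign. The part of these cells in the values of the 4 genes was not tested.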

How the data were processed

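Hippocampal RNA of 15 mice was sequenced and the deposited files hold raw read counts for 55401 genes per mouse. Per the file headers and the submitters' processing notes, the authors aligned reads with STAR 2.6.1c to GRCm38 and counted them with featureCounts 1.6.0 on GENCODE exons, without strand or multi-mapping options. Labels and methods name different library kits. Symbols came from GENCODE M21 (55141 genes matched).

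Counts were analysed with R 4.3.3 and edgeR 4.0.16 (filterByExpr at a minimum count of 10, TMM factors of 0.961 to 1.03, robust quasi-likelihood test, 1 coefficient per group, 15 mice). The threshold was an unadjusted p of 0.01, with Benjamini-Hochberg adjustment over 19536 genes also given. Log2 CPM had a prior count of 2. Single genes were compared by exact permutation tests. Alternatives used limma-voom (limma 3.58.1), DESeq2 1.42.0, sva 3.50.0, other scalings and filters, offsets for length and GC content (lowess span 0.3), a replicate block and the omission of each mouse.

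The members and all 16 other gene lists were chosen with earlier results of these data known. Named outside the members are genes of those lists called in a comparison (at most 3 each by lowest p), high or defining markers, and the 3 nearest genes by correlation, apart from items not reported here. Libraries of 1 group differed from each other by more than sampling noise (chi-square per degree of freedom 13.3 to 46.5). The workflow was tested on simulated data.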

Additional observations from a re-analysis of the deposited data

How the results depend on the processing

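The 0 called genes of each comparison became 1 under few settings. With all mice these were the length offset for genotype under vehicle (1, Olig2, -0.49, unadjusted p = 0.00692) and under DHA (1, Cspg4), the latter also with the replicate block and the length offset (1, -0.37, unadjusted p = 0.00377), the fit of only the groups compared for DHA in WT mice (1, Olig2), and limma-voom for genotype over both treatments (1, Cspg4). The 3 offset settings were chosen after the data were seen. Fits without 1 mouse called 0 to 1 gene for genotype under vehicle, under DHA and over both treatments and for DHA over both genotypes, and 0 in the other 3 comparisons. Calls over all genes moved as well. With all mice they ran from 432 to 825 for genotype under vehicle, 175 to 485 under DHA and 678 to 998 over both treatments. For DHA in WT mice they ran from 219 to 431, the highest with only the groups compared. Without 1 mouse the calls for genotype ran from 312 to 965, 190 to 460 and 510 to 1008 in the same order, and those for DHA over both genotypes from 129 to 236. Cspg4 also passed for genotype under DHA without Tg2576 vehicle replicate 1 (unadjusted p = 0.00686) or 4 (unadjusted p = 0.00893). Its unadjusted p in that comparison reached 0.121 in other alternative fits. Genes without overlap numbered 1 to 3 for genotype under vehicle, 1 to 3 for genotype under DHA, 1 to 3 for DHA in WT mice and 0 to 2 for DHA in Tg2576 mice when 1 mouse was left out, a count that can only stay or grow, against 6.5 to 13.2%, 10.9 to 25.7%, 6.56 to 11.4% and 5.43 to 17.3% of all genes. With library sizes in place of TMM factors they numbered 0 for genotype under vehicle and 2 under DHA. The share of all genes was not computed in that setting. Over 13 settings with all mice and 15 fits without 1 mouse, 56 of 1930 fold changes of single genes changed sign, each with a p of 0.276 or more and none of them called. The cause of these shifts was not tested. The replicate number as a block called 0 genes in each of the 7 comparisons. The labels do not say whether equal numbers pair the mice. Deviations of same-numbered mice correlated at -0.244 to 0.213 over 21 pairs, and 5 of 15 mice correlated best with their own number. These correlations cannot settle the question, because a shared factor can be small beside the other differences between mice. Over all genes, calls for DHA in Tg2576 mice numbered 69, but 312 without Tg2576 DHA replicate 1, and those for the interaction 162 and 527. With 3 or 4 mice a group, the 95% interval of the Olig2 fold for genotype under vehicle ran from 0.569 to 0.981.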

Other observations

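Markers of 5 other cell classes were read in the same comparisons. Of 6 microglial genes 4 were called higher in Tg2576 mice under DHA and 4 over both treatments. Of 8 astrocyte genes 1 was called higher for genotype under vehicle, under DHA and over both treatments, and it was Gfap, at 1.02, 1.01 and 1.01 on the log2 scale. Of 8 genes of excitatory hippocampal neurons 3 were called lower in Tg2576 mice over both treatments, among them Prox1 (-0.27) and Wfs1 (-0.27). Of 5 endothelial genes 1 was called for genotype under vehicle and 1 over both treatments, each higher, and of 6 choroid plexus genes 0 were called in any comparison, although Ttr ranged from 33.5 to 5600 CPM between mice. Over the 15 mice, after subtraction of the group means, the r of Enpp6 with the choroid plexus genes was 0.695 (0.854 without Tg2576 vehicle replicate 1) and that of Bcas1 with the microglial genes 0.789 (0.599 without it), values given without a test.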
